A study of Mus musculus with 2 samples.

Results

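Tetraspanins are small membrane proteins that cross the membrane repeatedly and gather integrins, immunoglobulin-family receptors and each other into microdomains. In T cells they are known for setting adhesion, costimulation and vesicle release, and some of them are restricted to blood cells. The 9 tetraspanin genes described here were chosen by name: Cd82, Cd9, Cd37, Cd53, Cd63, Cd81, Cd151, Tspan9 and Tspan32, of 31053 genes in the count matrices. All 9 had a row, and 8 passed the low-count filter of the test between cell classes, Tspan9 being the exception.

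Single-cell RNA sequencing was performed on live CD45+EpCAM-MHC-II- cells sorted from trypsin-separated ear epidermis of 8-week-old female WT FVB/NJ mice. The mice had been injected intradermally in the ear 7 d before, either with an isotype control or with anti-Skint1 antibody, and there is n = 1 library per treatment. The labels do not say how many mice went into a library, and by the general rule of the study's statistics n counts individual mice. Skint1 is a butyrophilin-like protein of keratinocytes that is sensed by the Vγ5Vδ1 T cells of the epidermis, the dendritic epidermal T cells (DETCs).

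After removal of barcodes outside 500 to 2500 genes or above 12% mitochondrial UMIs (unique molecular identifiers, each standing for 1 captured RNA molecule), 4242 isotype and 5961 anti-Skint1 cells remained, and 5 cell barcodes occurred in both libraries. The samples are labelled as DETCs, but the sort kept other lymphocytes too. DETCs, called from Trdc and Cd3 with no Trac, Cd4, Cd8a or Cd8b1 UMI, made up 3544 isotype and 4945 anti-Skint1 cells, with medians of 4027.5 and 3577 UMIs per cell. The αβ T gate (Trac with no Trdv4) held 197 and 213 cells with medians of 3766 and 3581 UMIs. The gate for innate lymphoid cells (ILCs; Il7r, Rora and Gata3 with little Cd3 and no Trdv4) held 82 and 139 cells with medians of 4570 and 4334 UMIs, and 9 and 14 cells met both of the last gates. No class was given to 428 and 678 cells.

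The class names were checked on markers that the gates did not use. DETCs carried Tcrg-V5 at 59.0 and 62.6 CPM (UMIs of a gene per 1000000 UMIs of the class) and Fcer1g at 2372 and 2527 CPM, in isotype and anti-Skint1 in that order. In αβ T cells they stood at 0 and 3.59 CPM and at 366 and 509 CPM. Trbc2 did not separate the classes, with 1215 and 1119 CPM in the αβ T gate and 1097 and 979 CPM in DETCs. The αβ T gate also held Trdc at 299.7 and 546 CPM, against 4673 and 3847 CPM in DETCs. The ILC gate was less clear. None of the 4 ILC markers that did not gate it was highest there in both libraries. Il2ra stood at 41.8 and 60.7 CPM, but also at 77.4 and 52.6 CPM in αβ T cells. Klrb1b stood at 13.1 and 12.1 CPM, against 138 and 129 CPM in DETCs. Il1rl1 was at 0 and 4.55 CPM, against 33.7 and 25.1 CPM in αβ T cells, and Ncr1 was at 0 and 1.52 CPM. The 4 keratinocyte genes Krt5, Krt14, Krt10 and Krt1 summed to 428 CPM in the isotype and 3526 CPM in the anti-Skint1 cells of the ILC gate, against 15.8 and 25.4 CPM in DETCs. It is therefore called the ILC gate below, and its values for the members at 10 CPM or more are given with and without the barcodes concerned. Those of other genes are given with all barcodes.

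On GRCm38 the genes lie on chromosomes 2 (Cd82), 3 (Cd53), 6 (Cd9 and Tspan9), 10 (Cd63) and 7 (Cd37, Cd151, Tspan32 and Cd81). Cd82 spans chr2:93419111-93463140 on the minus strand, and Cd9 spans chr6:125460266-125494791 on the same strand. Tspan32 (chr7:143005046-143019644) and Cd81 (chr7:143052739-143067934) are neighbours on the plus strand, with 33.1 kb between them. The promoters of 4 genes are shown because Cd82, Cd81 and Tspan32 were lower and Cd9 was higher in DETCs than in αβ T cells. Each is a RefSeq window on GRCm38.p6 from 250 bases before to 50 bases after a start site, read 5′ to 3′ on the gene's strand: chr2:93462901-93463200 (Cd82, the farthest upstream of its 4 listed start sites), chr6:125494711-125495010 (Cd9), chr7:143052500-143052799 (Cd81) and chr7:143004796-143005095 (Tspan32). Capitals mark matches on either strand to the GC box GGGCGG, the Runx motif TGTGGT, the GATA motif AGATAA and the TATA motif TATAAA.
Cd82: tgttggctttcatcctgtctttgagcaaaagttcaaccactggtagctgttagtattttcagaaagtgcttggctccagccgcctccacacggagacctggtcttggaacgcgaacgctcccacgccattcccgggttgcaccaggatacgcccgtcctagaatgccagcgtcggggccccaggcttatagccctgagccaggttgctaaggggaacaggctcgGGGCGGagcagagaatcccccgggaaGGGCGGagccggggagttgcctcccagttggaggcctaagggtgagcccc
Cd9: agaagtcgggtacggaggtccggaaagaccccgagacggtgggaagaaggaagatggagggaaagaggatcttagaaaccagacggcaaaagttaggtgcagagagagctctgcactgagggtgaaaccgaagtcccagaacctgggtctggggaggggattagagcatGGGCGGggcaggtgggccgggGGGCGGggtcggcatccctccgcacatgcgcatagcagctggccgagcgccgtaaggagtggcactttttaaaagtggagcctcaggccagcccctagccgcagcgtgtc
Cd81: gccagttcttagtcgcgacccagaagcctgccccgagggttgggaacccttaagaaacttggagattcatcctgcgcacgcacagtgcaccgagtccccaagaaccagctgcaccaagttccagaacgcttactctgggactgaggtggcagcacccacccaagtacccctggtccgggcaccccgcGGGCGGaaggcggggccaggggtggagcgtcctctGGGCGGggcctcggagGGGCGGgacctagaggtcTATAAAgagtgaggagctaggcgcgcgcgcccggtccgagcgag
Tspan32: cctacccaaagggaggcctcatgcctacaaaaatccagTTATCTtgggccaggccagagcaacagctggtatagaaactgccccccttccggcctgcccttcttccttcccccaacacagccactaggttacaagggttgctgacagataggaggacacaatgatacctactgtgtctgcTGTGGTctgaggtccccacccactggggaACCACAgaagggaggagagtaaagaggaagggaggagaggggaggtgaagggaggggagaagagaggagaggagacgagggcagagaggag

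The Cd82 and Cd9 windows held 2 GC boxes each and the Cd81 window held 3, and 35.7% of all 32851 promoter windows held at least 1. The Cd81 window also had a TATA match, which 13.6% of windows had. Tspan32 had no GC box, 2 Runx matches and a GATA match, motifs held by 16.8% and 11.2% of windows. None of the 4 windows matched the AP-1 motif TGANTCA (in 7.81% of windows) or the ETS motif GGAAGT (in 23.8%). The windows of the other start sites of Cd82 differed, with 1 Runx match and 1 GC box at the second, 2 ETS matches at the third and 2 Runx matches at the fourth.

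Cd82, a tetraspanin known as a suppressor of metastasis and as a costimulatory molecule of T cells, separated DETCs from the other classes. It stood at 40.9 CPM in isotype DETCs (600 UMIs) and 31.9 CPM in anti-Skint1 DETCs (596 UMIs). In αβ T cells it reached 390 and 389 CPM. In the ILC gate it reached 496 CPM in the isotype and 617 CPM in the anti-Skint1 library. Both DETC values lay about an order of magnitude under every αβ T and ILC value, with no overlap of the counting intervals. By edgeR's quasi-likelihood test on the 6 sums of class and library, the log2 difference between DETCs and αβ T cells was -3.55 (SE 0.15, Benjamini-Hochberg adjusted p = 3.94e-10). Against the ILC gate it was -4.11 (SE 0.15, adjusted p = 8.69e-11, same edgeR test). The ILC gate exceeded αβ T cells by 0.56 (SE 0.15, adjusted p = 0.0322, same edgeR test), a call that was lost in DESeq2 (difference 0.55, adjusted p = 0.1425), when αβ T cells with a Trdc UMI were left out (0.31, adjusted p = 0.271 in edgeR) and when barcodes with keratinocyte or myeloid UMIs, Cd74 among them, were left out (0.077, adjusted p = 0.869 in edgeR). It was kept with the narrower list of keratins, Cd207, H2-Aa and Lyz2 (0.68, adjusted p = 0.00784, edgeR), where the gate held Cd82 at 517 and 712 CPM, and it turned to -0.40 (adjusted p = 0.0288, edgeR) with no upper limit on genes, when keratin genes reached 15735 and 17794 CPM in the gate.

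Cd9, an adhesion tetraspanin that keratinocytes also express, ran the other way. DETCs held it at 288 and 297 CPM (4228 and 5560 UMIs), against 30.0 and 62.2 CPM in αβ T cells. The DETC values were the higher in each library, by 9.62-fold in isotype and 4.78-fold in anti-Skint1, and the pooled difference was 2.59 on the log2 scale (SE 0.30, adjusted p = 9.94e-06, edgeR). Without αβ T cells that had a Trdc UMI, the αβ T level was 17.3 and 36.8 CPM. In the ILC gate Cd9 stood at 102 CPM in isotype and 321 CPM in anti-Skint1 cells, so DETCs were higher in the isotype library only, and the difference of 0.31 did not pass the test (adjusted p = 0.3705, edgeR). It passed with the opposite sign at a mitochondrial limit of 5% (-1.18, adjusted p = 0.0426, edgeR) and with no upper limit on genes (-2.29, adjusted p = 7.92e-10, edgeR). The summed keratin genes in the gate were at 0 CPM in isotype and 9627 CPM in anti-Skint1 in the first setting, and at 15735 and 17794 CPM in the second, and their part in the result was not tested.

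The Cd9 level of the ILC gate moved with UMIs of other cell types. In the anti-Skint1 library 9 of the 139 barcodes had 20 or more keratin UMIs. These 9 held 67.0% of the Cd9 UMIs of the gate at 1852 CPM, and no UMI of the leukocyte tetraspanins Cd37 and Cd53. A wider rule took out barcodes with any UMI of the 4 keratins, the Langerhans cell genes Cd207 and H2-Aa, or Lyz2. This left 73 isotype and 113 anti-Skint1 barcodes, whose Cd9 stood at 53.5 and 47.1 CPM. With this rule DETCs exceeded the ILC gate by 2.47 on the log2 scale (adjusted p = 4.52e-08, edgeR), and the gate exceeded αβ T cells by only 0.066 (adjusted p = 0.9485), where the difference with all barcodes was 2.27 (adjusted p = 0.000909). DETC Cd9 was as high without such barcodes, at 291 and 297 CPM.

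**Figure D1:**
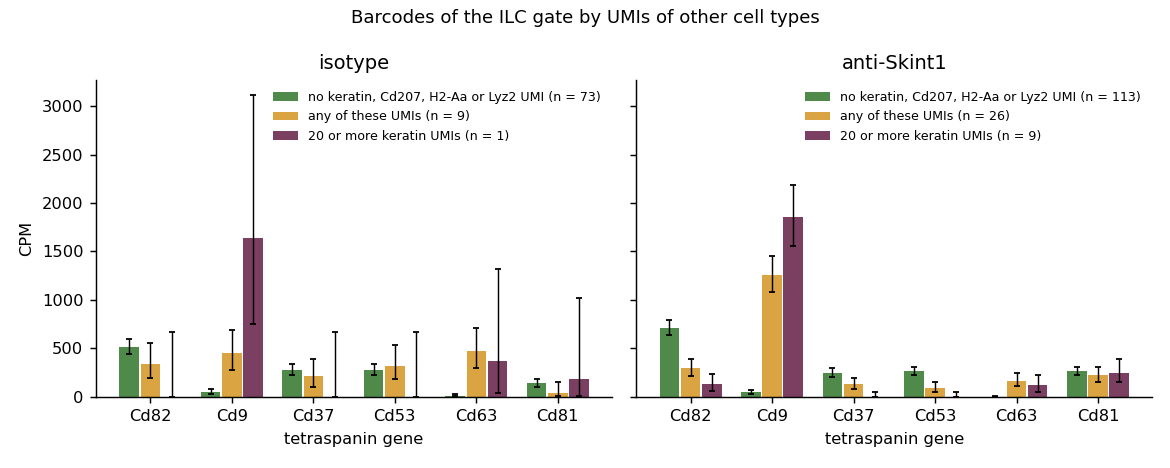
Bars give the CPM of 6 tetraspanins in barcodes of the ILC gate without any keratin, Cd207, H2-Aa or Lyz2 UMI, with at least 1 such UMI, and with 20 or more keratin UMIs, in the isotype (left) and anti-Skint1 (right) library; error bars are exact 95% Poisson intervals. Cd9 is far higher in the barcodes with keratin UMIs (1852 CPM in the 9 anti-Skint1 barcodes), while Cd37 and Cd53 are at 0 there.

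Cd81, a partner of immunoglobulin-family receptors on many cells, was the member closest to absent in DETCs. Only 11 UMIs were found in the 3544 isotype DETCs (0.75 CPM) and 7 in the 4945 anti-Skint1 DETCs (0.374 CPM). αβ T cells had 33 and 38 UMIs in far fewer cells (41.2 and 45.4 CPM), and the ILC gate had 49 and 167 (128 and 253 CPM). No DETC interval overlapped that of another class. The log2 difference from αβ T cells was -6.42 (SE 0.43, adjusted p = 4.10e-08, edgeR), and from the ILC gate it was -8.59 (SE 0.33, adjusted p = 1.23e-10, edgeR). The ILC gate was higher than αβ T cells by 2.17 (SE 0.28, adjusted p = 0.000219, edgeR), a call lost at a mitochondrial limit of 5% (2.15, adjusted p = 0.1235, edgeR), which left 16 and 20 cells in the gate. Unlike Cd9, Cd81 kept its level in the gate without keratin, Cd207, H2-Aa or Lyz2 barcodes, at 139.7 and 263 CPM. A list that also counted Cd74, an antigen-presentation gene that αβ T cells carry at 86.2 and 67.0 CPM, left 49 and 70 barcodes, with Cd81 at 123 and 134 CPM, and it also lowered Cd81 in αβ T cells, to 13.1 and 20.0 CPM.

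Tspan32, a tetraspanin of blood cells known to restrain T cell proliferation, followed Cd81. It had 19 and 42 UMIs in DETCs (1.30 and 2.25 CPM), 33 and 19 in αβ T cells (41.2 and 22.7 CPM) and 23 and 48 in the ILC gate (60.1 and 72.8 CPM). The DETC values were the lowest in both libraries. DETCs were lower than αβ T cells by a log2 difference of -4.26 (SE 0.41, adjusted p = 1.71e-06, edgeR) and lower than the ILC gate by -5.36 (SE 0.39, adjusted p = 7.14e-08, edgeR). The call against the gate was lost at a mitochondrial limit of 5% (-4.20, adjusted p = 0.0624, edgeR). The ILC gate and αβ T cells differed by 1.09, which missed the threshold (adjusted p = 0.103, edgeR). Without keratin, Cd207, H2-Aa or Lyz2 barcodes the gate held 65.4 and 88.2 CPM, and this difference passed (1.25, adjusted p = 0.0425, edgeR).

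Cd37 and Cd53, the tetraspanins most restricted to leukocytes, were the even members of the group. Cd37 lay between 203 and 269 CPM in all 6 combinations of class and library. Cd53 lay between 223 and 285 CPM. Neither passed the test in any of the 3 contrasts, and their largest difference was -0.24 for Cd37 between DETCs and the ILC gate (SE 0.12, adjusted p = 0.166, edgeR). With no upper limit on genes, DETCs minus the gate gave 1.29 for Cd37 and 1.32 for Cd53. The gate minus αβ T cells then gave -1.40 for each, and all of these were called in edgeR. Keratin genes reached 15735 and 17794 CPM in the gate in that setting. In the DETC sums they had 3186 and 4411 UMIs (Cd37) and 3717 and 4635 UMIs (Cd53), so counting error was small there. Without keratin, Cd207, H2-Aa or Lyz2 barcodes the ILC gate held Cd37 at 277 and 247 CPM and Cd53 at 279.5 and 263 CPM.

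Cd63, the tetraspanin of late endosomes and secreted vesicles, was nearly missing from T cells. It had 22 and 29 UMIs in DETCs (1.5 and 1.55 CPM) and 0 and 1 UMI in αβ T cells, where a count of 0 allows up to 3.75 CPM. The ILC gate held 26 UMIs in each library (67.9 and 39.4 CPM). DETCs were lower than the ILC gate by -5.20 (SE 0.41, adjusted p = 1.75e-07, edgeR). The isotype ILC gate was 18.1-fold above a limit of 3 counts in αβ T cells. The lower end of the 95% counting interval of the ratio was 13.7-fold. As for Cd9, most of these UMIs sat in barcodes with RNA of other cells: 84.6% of the isotype and 96.2% of the anti-Skint1 Cd63 UMIs of the gate came from the 9 and 26 barcodes with a keratin, Cd207, H2-Aa or Lyz2 UMI. A sort for CD45+EpCAM-MHC-II- cells should remove keratinocytes and Langerhans cells, and how this RNA came into the gate was not tested. The remaining barcodes held 4 UMIs and 1 UMI (11.9 and 1.96 CPM), and the gene no longer passed the filter for testing.

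Cd151, a partner of laminin-binding integrins, was low in every class, at 18.1 and 20.5 CPM in DETCs, 11.2 and 12 CPM in αβ T cells and 15.7 and 16.7 CPM in the ILC gate. No contrast passed the test with all barcodes of the main setting (DETCs against αβ T cells 0.61, SE 0.32, adjusted p = 0.166, edgeR). With no upper limit on genes all 3 passed in edgeR. DETCs minus αβ T cells then gave 0.91 (adjusted p = 0.0318, edgeR) and DETCs minus the gate -1.47 (adjusted p = 4.11e-06, edgeR). The gate minus αβ T cells gave 2.38 (adjusted p = 2.22e-05, edgeR). In the gate Cd151 had only 6 and 11 UMIs, and its level varied with the barcodes kept. It was at 11.9 and 7.84 CPM without keratin, Cd207, H2-Aa or Lyz2 barcodes, where DETCs minus the gate gave 0.94 (adjusted p = 0.1236, edgeR). With Cd74 counted too, 0 and 1 UMI were left, and the difference passed (3.23, adjusted p = 0.0126, edgeR). Tspan9, best known from platelets, had 106 and 139 UMIs in DETCs (7.23 and 7.43 CPM). αβ T cells had 1 and 5 UMIs of it (1.25 and 5.98 CPM) and the ILC gate 0 and 2, too few to test at the filter used. The DETC to αβ T log2 ratio was 2.53 in isotype (0.024 to 7.85) and 0.31 in anti-Skint1 (-0.94 to 1.96). Over both libraries together the DETC to αβ T log2 ratio was 1.00 (95% counting interval -0.14 to 2.46) and the DETC to ILC gate ratio 1.94 (0.068 to 4.99).

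**Figure D2:**
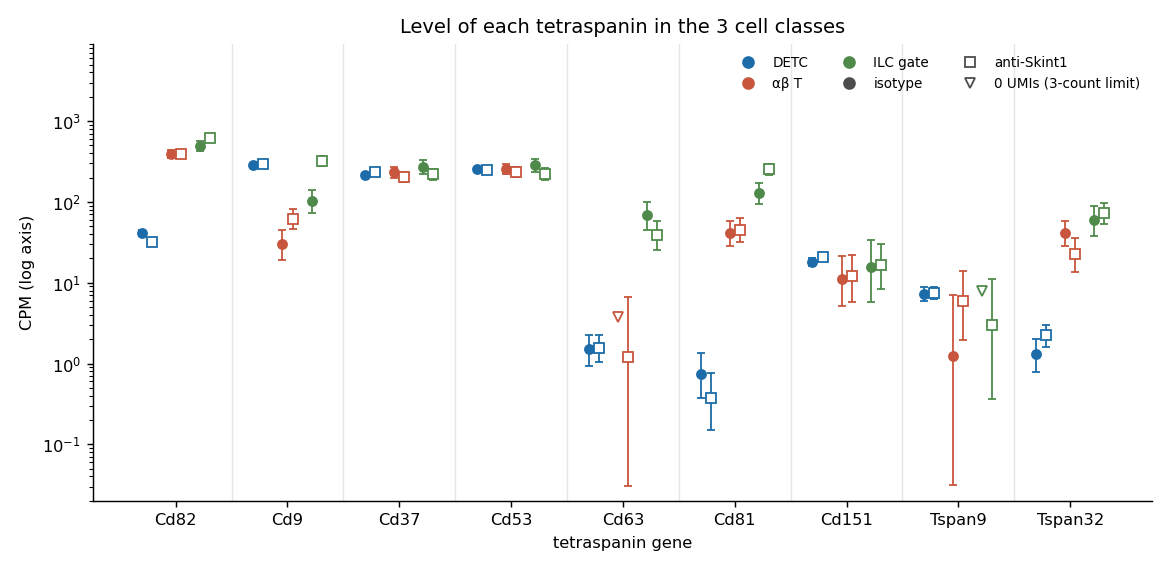
Points show the CPM of each tetraspanin (log axis) in DETCs, αβ T cells and the ILC gate, filled circles for isotype and open squares for anti-Skint1, with exact 95% Poisson intervals; open triangles mark 0 UMIs, placed at the limit of 3 counts. Cd37 and Cd53 lie level across classes, among isotype points Cd9 is highest in DETCs, and Cd82, Cd81 and Tspan32 are lowest in DETCs.

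As a group, 1 member was called higher and 3 were called lower in DETCs than in αβ T cells, where 16.5% and 15.9% of 7716 genes were called in these directions. Against the ILC gate 0 members were called higher and 4 lower, with 17.5% and 17.0% of genes called. Between the ILC gate and αβ T cells 4 were called higher in the gate (Cd82, Cd9, Cd81 and Cd63) and 0 lower, with 3.11% and 4.98% of genes called. In the directions with a count of 0 in edgeR, 0 members had an unadjusted p under 0.05, and DESeq2 also called 0. Without barcodes with keratinocyte or myeloid UMIs, Cd74 among them, 1 member in place of 4 was called higher in the gate than in αβ T cells. The median difference of the 8 members tested was -0.083, -2.17 and 0.83 in the 3 contrasts, and that of all genes was 0.021, -0.013 and 0.0032. Each class has 2 libraries that differ in treatment, and the fit leaves 2 residual degrees of freedom after a library term. Most of the spread behind these p-values is borrowed from other genes (11.68 prior degrees of freedom). The αβ T and ILC sums also share 9 and 14 cells, and nothing is known of the spread between mice.

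Levels between genes can be set side by side only within this 3′ assay, in which a molecule is counted once whatever its length. On that scale the order in isotype DETCs was Cd9 (288), Cd53 (254), Cd37 (217), Cd82 (40.9), Cd151 (18.1), Tspan9 (7.23), Cd63 (1.5), Tspan32 (1.30) and Cd81 (0.75 CPM). Cd63, Tspan32 and Cd81 had overlapping intervals, whereas the other neighbours did not overlap. In isotype αβ T cells Cd82 led with 390 CPM, and Cd53 (258.5) and Cd37 (232) followed with overlapping intervals. In the ILC gate Cd82 led in both libraries.

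RNA free in the droplets could give UMIs to cells that do not express a gene. Barcodes with 1 to 100 UMIs served to measure it. The free RNA held Cd81 at 223 and 204 CPM, Cd63 at 204 and 230 CPM, Cd9 at 367 and 382 CPM and Cd82 at 66.6 and 61.1 CPM. Cd81 in DETCs was 0.336% and 0.184% of its free level. If every Cd81 UMI in DETCs came from free RNA, the same proportion would bring 1.23 and 0.702 CPM of Cd9, 0.224 and 0.112 CPM of Cd82 and 0.0171 and 0.0185 CPM of Tspan9. Their measured DETC levels were 288 and 297 CPM (Cd9), 40.9 and 31.9 CPM (Cd82) and 7.23 and 7.43 CPM (Tspan9). The keratin genes Krt5, Krt14 and Krt10 stood at larger shares of their free level in DETCs than Cd81 did, from 1.45% to 2.32%. Cd82 stood at 61.4% and 52.2% and Cd9 at 78.6% and 77.8%, whereas Cd63 stood at 0.736% and 0.674%, under the keratin genes. How much of any member came from free RNA was not tested.

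Among αβ T cells, subsets called from Cd4, Cd8a, Cd8b1 and Foxp3 UMIs were small, and their values carry wide intervals and no test. Cd82 was present in each. It stood at 521 and 476 CPM in the 44 and 44 CD4 cells without Foxp3, at 262 and 343 CPM in the 25 and 17 CD8 cells and at 398 and 394 CPM in the 17 and 12 Foxp3+ cells. CD8 cells were lower than CD4 cells by a log2 ratio of -0.99 in isotype (95% counting interval -1.65 to -0.37) and -0.47 in anti-Skint1 (-1.19 to 0.19).

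Cd81 was higher in the Foxp3+ cells, Foxp3 being the factor of regulatory T cells, than in CD4 cells without Foxp3. They had 16 UMIs in isotype (236 CPM) and 6 in anti-Skint1 (169 CPM), against 2 and 2 UMIs in CD4 cells without Foxp3 (12.6 and 11.2 CPM). The log2 ratio was 4.23 (2.14 to 7.39) and 3.91 (1.43 to 7.25). CD8 cells had 0 Cd81 UMIs in isotype, which allows up to 27.1 CPM, and 7 in anti-Skint1 (99.9 CPM), all from 1 of the 17 cells, so no class level can be read from them. Cd53 was also higher there, with 516 against 157 CPM in isotype and 366 against 190 CPM in anti-Skint1, for log2 ratios of 1.71 (0.93 to 2.52) and 0.94 (-0.10 to 1.90). Tspan32 had 10 UMIs in isotype Foxp3+ cells (147 CPM, 70.6 to 271) and 1 in the anti-Skint1 ones (28.1 CPM, 0.71 to 157), with overlapping intervals.

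Between the treatments, Cd82 was the member that moved most in DETCs among those at 10 CPM or more. It was lower in anti-Skint1 by a log2 ratio of -0.36 (95% counting interval -0.53 to -0.20), which is 0.778 of the isotype level. Only 1.85% of the 7690 genes at this level had a lower ratio. Cd37 was 0.12 higher (0.052 to 0.18), with an interval that included 0 at a mitochondrial limit of 5% (0.086, -0.029 to 0.20). Cd9 (0.043, -0.014 to 0.10), Cd53 (-0.033, -0.096 to 0.029) and Cd151 (0.18, -0.046 to 0.41) had intervals that include 0. None of these 5 members passed a log2 ratio of 0.5 in either direction, and 0.234% of genes did so upwards and 0.702% downwards. The median gene stood at -0.027. With 1 library per treatment there is no test, the intervals cover counting error only, and an effect of the antibody cannot be told apart from one of the library.

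The 4 low members gave wide intervals in DETCs. Tspan9 was at 7.23 and 7.43 CPM (log2 ratio 0.039, -0.34 to 0.42). Cd63 was at 0.047 (-0.80 to 0.92). Tspan32 had 19 and 42 UMIs (0.79, -0.021 to 1.66), and Cd81 had 11 and 7 (-1.0, -2.61 to 0.49). A difference was not detectable at this depth for Tspan9, Cd63 or Cd81. The Tspan32 interval included 0 narrowly and left it out under some alternatives, as in cells with at least 1000 genes (0.96, 0.11 to 1.86).

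In αβ T cells Cd82 showed a ratio near 0 (-0.0040, -0.23 to 0.22). Cd9 had 24 and 52 UMIs (1.05, 0.33 to 1.81). Its interval included 0 with a mitochondrial limit of 5% (0.68, -0.43 to 1.81), with stricter gates (0.91, -0.17 to 2.04) and without cells that held Trdc UMIs (1.09, -0.019 to 2.28). Tspan32 had 33 and 19 UMIs (-0.86, -1.76 to -0.0026). The Tspan32 interval included 0 under most alternatives, as with stricter gates (-0.39, -1.69 to 0.84) and a mitochondrial limit of 5% (-0.048, -1.31 to 1.17). These were 1 member past 0.5 upwards and 1 downwards of 7 at 10 CPM or more, where 12.4% and 17.5% of genes lay past it. Trdc stood at 299.7 and 546 CPM in αβ T cells, and whether it bears on the Cd9 ratio was not tested. Without αβ T cells that had a Trdc UMI, Cd9 was at 17.3 and 36.8 CPM.

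In the ILC gate Cd82 was higher in anti-Skint1 (0.31, 0.063 to 0.57), and 0.46 higher without keratin, Cd207, H2-Aa or Lyz2 barcodes. Its interval included 0 when barcodes with a Cd74 UMI were left out too (0.21, -0.21 to 0.64), with a mitochondrial limit of 5% (0.28, -0.27 to 0.85) and with no upper limit on genes (0.19, -0.0090 to 0.39). Cd81 was 0.98 higher (0.52 to 1.48) and 0.91 higher without those barcodes, but 0.13 (-0.63 to 0.90) when barcodes with a Cd74 UMI were left out too. Cd9 was 1.66 higher (1.16 to 2.19) with all barcodes and -0.19 without the same ones. Cd63 was lower (-0.78, -1.63 to 0.058). These were 2 members upwards and 1 downwards of 8, where 17.7% and 25.9% of genes lay past 0.5.

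**Figure D3:**
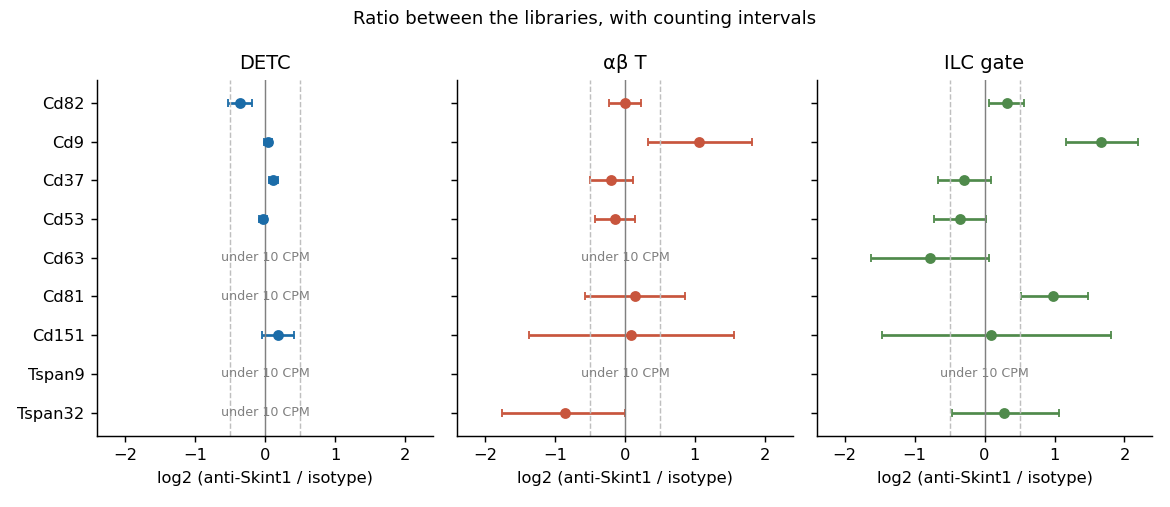
Points show the log2 ratio of anti-Skint1 to isotype CPM for each tetraspanin in DETCs, αβ T cells and the ILC gate, with exact 95% counting intervals; dashed lines mark 0.5 in either direction, and members under 10 CPM are not drawn. DETC ratios lie inside the dashed lines with Cd82 lowest at -0.36, and in the ILC gate Cd9 and Cd81 lie furthest to the right.

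Cell-to-cell spread was examined in DETCs thinned to 2000 UMIs each, which left out 134 isotype and 202 anti-Skint1 cells. Cd82 was seen in 6.01% of isotype (95% Clopper-Pearson interval 5.24 to 6.86) and 5.12% of anti-Skint1 DETCs (4.51 to 5.79), and in 9.99% and 8.17% before thinning. Cd81, the member with the lowest DETC share of its free level, was seen in 0.176% and 0.0633% of the thinned cells. In the thinned αβ T cells Cd82 was seen in 44.2% and 41.8%, and in the ILC gate in 44.2% and 56.6%. Cd9 was seen in 40.4% and 42.0% of DETCs, Cd37 in 36.2% and 37.2%, Cd53 in 40.7% and 38.9%, Cd151 in 3.81% and 4.34% and Tspan9 in 1.61% and 1.48%.

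Cd82 had the highest Fano factor of the 9 members, the variance over the mean of the thinned counts, at 1.71 and 1.5. A Poisson spread with the same mean would have reached 7.72% and 6.27% of cells. The 10 cells with most Cd82 held 13.5% and 10.4% of all its DETC UMIs, with up to 9 in a cell. This share was larger for the low members Tspan9 (20.8% and 17.3%), Cd63 (59.1% and 44.8%), Tspan32 (63.2% and 26.2%) and Cd81 (90.9% and 100%). It was smaller for Cd9, Cd37, Cd53 and Cd151. Cd9 had Fano factors of 1.28 and 1.25. Cd37 (0.996 and 1.03), Cd53 (1.00 and 1.08) and Cd151 (1.02 and 1.00) were close to 1, which a Poisson spread gives. A thinned DETC showed on average 1.29 and 1.30 of the 9 members, an αβ T cell 1.33 and 1.34 and a barcode of the ILC gate 1.74 and 1.90.

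Cd82 was higher in DETCs with Xcl1, Gzmc and Tnfrsf9. DETCs with 2 or more thinned UMIs of Xcl1, Gzmc and Tnfrsf9, which code for a chemokine, a granzyme and a costimulatory receptor, numbered 515 in isotype (15.1%) and 320 in anti-Skint1 (6.75%). In these cells Cd82 stood at 99.5 and 84.6 CPM, against 30.5 and 25.6 CPM in the 2368 and 3895 cells with none. The log2 ratio was 1.70 (1.45 to 1.96) in isotype and 1.72 (1.41 to 2.03) in anti-Skint1. Cd82 was seen in 14.4% and 13.4% of the high cells after thinning, and in 4.22% and 4.08% of the low ones. The study named Cd82 for a DETC cluster from the same cells, so this is not independent evidence.

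Tspan9 was also higher in that state in isotype, at 20.2 against 4.69 CPM (2.11, 1.48 to 2.73), and was seen in 4.27% against 1.14% of thinned cells. In anti-Skint1 it was at 11.5 against 6.98 CPM (0.72, -0.16 to 1.51) and in 1.25% against 1.49% of thinned cells, so no difference was detectable there. Cd9, Cd37, Cd53 and Cd151 had log2 ratios between -0.15 and 0.13 in both libraries. Of the 5 members at 10 CPM or more, 1 was past 0.5 upwards in both libraries and 0 downwards, where 0.733% and 1.03% of 7370 genes were.

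The high cells held 36.5% of isotype and 18.9% of anti-Skint1 Cd82 UMIs of DETCs, so the number of such cells moved with the Cd82 difference between treatments. Within the high cells the anti-Skint1 to isotype log2 ratio of Cd82 was -0.23 (-0.58 to 0.10). Within the cells with none it was -0.26 (-0.48 to -0.034), and in those with 1 UMI it was 0.42 (-0.043 to 0.89). How much of the pooled -0.36 came from the share of cells was not tested.

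Immediate-early genes (Fos, Fosb, Jun, Junb, Egr1, Nr4a1 and Ier2) are known to rise on stimulation. Against the lowest tertile by their sum, the highest tertile had Cd151 lower by -0.53 (-0.99 to -0.076) in isotype and -0.61 (-0.99 to -0.24) in anti-Skint1. The median gene stood at -0.20 and -0.18 in this comparison. Cd37 was at -0.40 and -0.30, and Cd9 at -0.11 and -0.27, so Cd37 lay under the median gene in both libraries and Cd9 in anti-Skint1. Cd82 was lower by -0.74 (-1.04 to -0.44) in isotype and -0.22 (-0.52 to 0.083) in anti-Skint1. In the lowest tertile Cd82 differed between treatments by -0.73 (-1.0 to -0.46), in the middle by -0.11 (-0.40 to 0.19) and in the highest by -0.21 (-0.54 to 0.12). Of 5 members 0 were past 0.5 upwards and 1 (Cd151) downwards in both libraries, where 8.24% and 7.78% of 7388 genes were. The Cd151 count was 0 when cells were thinned to 1000 UMIs, at a mitochondrial limit of 5% and with no upper limit on genes.

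Cycling DETCs had 3 or more thinned UMIs of Mki67, Top2a, Cdk1, Ccnb2, Birc5, Stmn1 and Tubb5, at least 1 of them from the first 5 genes, and numbered 69 and 71. They were set against the 3244 and 4522 DETCs with no UMI of those 5. Cd37 was lower in them in both libraries (-0.48, -0.89 to -0.10, and -0.54, -0.92 to -0.19). Cd9 was at 308 and 320 CPM in cycling cells, against 286 and 294 CPM in the others. Cd82 went opposite ways, with 30 UMIs in isotype cycling cells (1.03 higher, 0.45 to 1.56) and 4 in anti-Skint1 ones (-1.65, -3.53 to -0.29). With no upper limit on genes the isotype ratio was 0.11 (-0.26 to 0.46), and the anti-Skint1 ratio -1.05 (-1.71 to -0.47). With cells thinned to 1000 UMIs the ratios were 1.58 (0.96 to 2.13) and -0.30 (-1.93 to 0.93). No member was past 0.5 in the same direction in both libraries, where 8.25% of 7379 genes were upwards and 8.77% downwards.

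**Figure D4:**
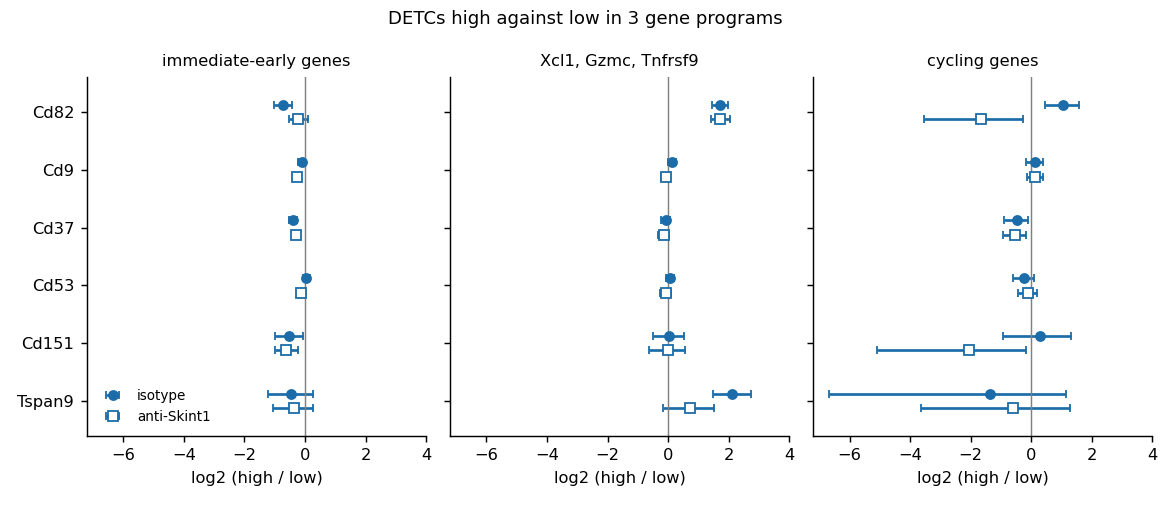
Points show the log2 ratio of CPM in DETCs high against low for immediate-early genes, for Xcl1, Gzmc and Tnfrsf9, and for cycling genes, for 6 tetraspanins in isotype (filled circles) and anti-Skint1 (open squares), with exact 95% counting intervals. Cd82 stands near 1.7 in both libraries for Xcl1, Gzmc and Tnfrsf9, and its 2 points lie on opposite sides of 0 for cycling genes.

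The wider family was read from a list of 22 other tetraspanins, of which 9 reached 10 CPM in at least 1 sum of class and library and 4 had no UMI in any. Of 8 tested, 4 were called higher and 1 lower in DETCs than in αβ T cells, and 5 higher and 1 lower than in the ILC gate, where 16.5% and 15.9%, and 17.5% and 17.0%, of all genes were called. Tspan2 was the most abundant, at 123 and 109 CPM in DETCs, 28.7 and 34.7 CPM in αβ T cells and 15.7 and 13.6 CPM in the ILC gate. Its log2 difference was 1.74 from αβ T cells (adjusted p = 4.46e-06, edgeR) and 2.84 from the ILC gate (adjusted p = 8.95e-07). Tspan4 stood at 58.3 and 50.5 CPM in DETCs (2.44 and 4.06 above the other classes). Tspan31, at 43.0 and 42.8 CPM, was 0.96 and 1.74 above them, and Tspan5, at 20.8 and 24.4 CPM, 1.5 and 1.61 above. Tspan5, Tspan14, Tspan15 and Tspan17 belong to the subgroup that escorts the protease ADAM10. Tspan17 was lower in DETCs (0.273 and 0.214 CPM) than in αβ T cells (8.74 and 7.17 CPM) or the ILC gate (26.1 and 15.2 CPM). Tspan13 was at 22.0 and 21.2 CPM in DETCs and 0 and 3.03 CPM in the ILC gate. Tspan3 and Tspan14, at 24 to 24.7 CPM in DETCs, passed no test, and Tspan15, with 14 and 3 UMIs in the ILC gate (36.6 and 4.55 CPM), was not tested.

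**Figure D5:**
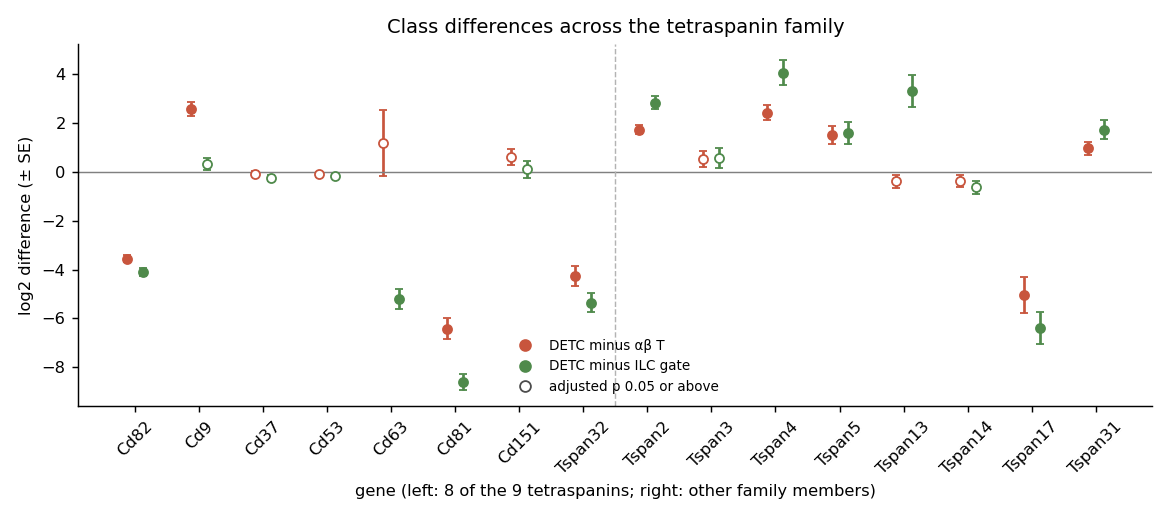
Points show the log2 difference of DETCs from αβ T cells (red) and from the ILC gate (green) with its SE, from edgeR, for 8 of the 9 tetraspanins (left of the dashed line) and 8 other family members (right); filled points have an adjusted p under 0.05. Cd82, Cd81, Tspan32 and Tspan17 lie under 0 in both contrasts, and Tspan2, Tspan4, Tspan5 and Tspan31 lie above 0.

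Proteins that travel with tetraspanins, and genes of vesicle formation, were taken as a list of 28, of which 21 were tested. In DETCs 6 were called higher and 7 lower than in αβ T cells, and likewise 6 and 7 against the ILC gate, beside the same shares of all genes called. Igsf8 and Igsf3 code for immunoglobulin-family proteins, and IGSF8 is a direct partner of CD9 and CD81. Igsf8 was at 99.7 and 86.5 CPM in DETCs (1.40 and 1.66 above the other classes), and Igsf3 was at 60.0 and 64.8 CPM (1.96 and 2.70 above). Ptgfrn, whose product is a close relative of IGSF8, went the other way against the ILC gate (-1.87, adjusted p = 0.00351, edgeR). Gate values for these genes and the other tetraspanins include the barcodes with keratinocyte or myeloid UMIs, whose part was not tested.

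Among the lower genes, Cd5, which dampens T cell receptor signals, had 4 and 3 UMIs in DETCs and 73 and 68 in αβ T cells (log2 difference -8.66, adjusted p = 1.76e-09, edgeR). Ifitm3, an antiviral membrane protein found with tetraspanins, differed by -4.63 from αβ T cells and by -7.58 from the ILC gate. Adam17, a protease that sheds membrane proteins, differed by -1.71 and -2.02, and Cd44, the hyaluronan receptor, by -1.35 and -1.33. Cd2 was close to level in DETCs and αβ T cells (-0.19, adjusted p = 0.198, edgeR) and 3.68 above the ILC gate, and Ifitm2 was 1.51 and Itgb7, an integrin chain of epithelial lymphocytes, 1.48 above that gate.

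The genes whose pattern was most like that of Cd82 over the 6 sums, of 6819 genes searched at 20 CPM or more, were Tgfb1, Camkk2, Dusp2, Rap2c and Tnfrsf25. Pearson's r of log2(CPM + 1) was 0.999 for Tgfb1 and 0.998 for the others. The 6 points share 2 libraries and 3 classes, so r mainly describes the order of the classes. Tgfb1 ran from 126 and 118 CPM in DETCs to 366 and 414 CPM in the ILC gate, and Tnfrsf25 from 1.77 and 1.39 CPM to 131 and 136 CPM.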

How the data were processed

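Single-cell RNA of 2 epidermal lymphocyte libraries was measured (10x 3′ v3 kit). The authors deposited raw UMI counts per gene and barcode, before any cell filter, made with CellRanger 3.0.2 on GRCm38 (mm10). The 2 matrices held 27272211 and 32450957 UMIs. Cells were kept as in the study's methods. Classes were set by UMI gates on receptor and lineage genes that hold no tetraspanin. The members, gene lists and tests were chosen with earlier results of these data known.

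UMIs were summed per class and library. Class contrasts used edgeR 4.0.16 (quasi-likelihood test, TMM, low-count filter, library as a term, Benjamini-Hochberg over 7716 genes, threshold 0.05) in R 4.3.3, with DESeq2 1.42.0 as an alternative. The scripts were tested on simulated data. There the test of DETCs against αβ T cells recovered 52% of 200 genes changed by 1 on the log2 scale. Of the genes called, 2.80% were unchanged. A gene that does not pass the test can therefore still differ. Treatments have 1 library each and were compared by log2 ratios with exact 95% intervals, without p-values. Intervals and limits of 3 counts cover counting error only. No doublet caller was run, and barcodes with UMIs of other cell types were left out as an alternative. Named genes were the 9 members, other tetraspanins at 10 CPM or more in a class of a library, up to 10 partner genes called with a log2 difference past 1, by size, and the 5 genes most like Cd82. Scart2, meant for a small γδ gate, was not used here.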

Additional observations from a re-analysis of the deposited data

Results flagged for a closer look

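The Cd82 ratio between treatments went opposite ways in 2 classes, at -0.36 in DETCs and 0.31 in the ILC gate. The counting interval in DETCs leaves out 0, and that in the gate leaves out 0 as reported but includes it without keratinocyte or myeloid UMIs (0.21, -0.21 to 0.64), with a mitochondrial limit of 5% and with no upper limit on genes. Their difference was 0.68 on the log2 scale and was not tested, since each treatment has 1 library.

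Cd82 in cycling against other DETCs also went opposite ways, at 1.03 in isotype (30 UMIs) and -1.65 in anti-Skint1 (4 UMIs). With no upper limit on genes the ratios were 0.11 and -1.05, and with cells thinned to 1000 UMIs 1.58 and -0.30. This difference of -2.68 was not tested either.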

How the results depend on the processing

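No paired analysis was possible because each treatment had 1 library. The Cd82 ratio in DETCs lay between -0.42 and -0.31 under all alternatives run. Of 289 alternative treatment ratios of members, 264 lay within the counting interval of the value reported and were not counted as reversed. Small reported ratios among them could still change sign. With a mitochondrial limit of 5%, Cd9 in DETCs went from 0.043 to -0.0090, and Cd151 in αβ T cells from 0.089 to -0.60. Some settings left a class unchanged, as leaving out αβ T cells with Trdc UMIs did for DETCs. Members with few UMIs had wide intervals, so this count does not measure how stable the ratios are. The setting without barcodes with keratin, Cd207, H2-Aa or Lyz2 UMIs, that without 20 or more keratin UMIs and that without Trdc UMIs in αβ T cells were chosen after seeing the data. With no upper limit on genes the ILC gate held keratin genes at 15735 and 17794 CPM. The Cd81 ratio in DETCs was then 0.43. DETCs minus the gate gave -2.29 for Cd9, 1.29 for Cd37, 1.32 for Cd53 and -1.47 for Cd151, all called. The gate minus αβ T cells gave -0.40 for Cd82, -1.40 for Cd37, -1.40 for Cd53 and 2.38 for Cd151, all called. DETCs minus αβ T cells gave 0.91 for Cd151, also called. The members called became 2 higher in DETCs than αβ T cells, 2 higher and 7 lower than the gate, and 3 lower in the gate than αβ T cells, and genes called became 2670 and 3646 for DETCs against the gate and 2577 and 1960 for the gate against αβ T cells. For DETC states it gave 0 members lower with immediate-early genes and 1 lower in cycling cells. A mitochondrial limit of 5% left 16 and 20 cells in the gate and gave -1.18 for Cd9 in DETCs minus the gate (called, adjusted p = 0.0426, edgeR), 2 members higher in the gate than αβ T cells, 0 lower with immediate-early genes, and 606 and 563, 425 and 454, and 76 and 77 genes called higher and lower in the 3 contrasts. Under it DETCs minus the gate for Tspan32 (-4.20, adjusted p = 0.0624) and the gate minus αβ T cells for Cd82 (0.76, adjusted p = 0.149) and Cd81 (2.15, adjusted p = 0.1235, edgeR) lost their calls. DESeq2 called 712 genes higher in DETCs than αβ T cells, and 151 higher and 236 lower in the gate than αβ T cells. Without keratinocyte or myeloid UMIs the Cd9 ratio in the gate was -0.65, 2 members were higher in DETCs than the gate and 1 higher in the gate than αβ T cells, with 843 genes lower in DETCs than the gate and 114 higher in the gate than αβ T cells. Without keratin, Cd207, H2-Aa or Lyz2 UMIs that ratio was -0.19. This setting, the one without 20 or more keratin UMIs and stricter gates each put 1 member higher in DETCs than the gate. Thinning to 1000 UMIs gave 0 members lower with immediate-early genes and 0.024 for Cd151 in cycling anti-Skint1 cells. Beyond the share of foreign UMIs given above, the causes were not tested.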

Other observations

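In the few barcodes with 20 or more keratin UMIs and no Cd3, Cd9 stood at 1642 CPM in isotype (1 barcode) and 1934 CPM in anti-Skint1 (12 barcodes), and Cd63 stood at 365 and 216 CPM. In γδ T cells without Trdv4 that had an Il17a or Blk UMI (10 and 9 cells), Cd82 stood at 307 and 586 CPM. The DETC gate did not require Trdv4, so such cells can also count as DETCs, and the overlap was not counted. With the stricter gates, which require Trdv4 in DETCs, 3133 and 4146 DETCs remained, with Cd82 at 38.3 and 30.4 CPM.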
